A study of Mus musculus with 8 samples.

Results

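The genes described here are 8 transcription factors through which the circadian clock passes its rhythm on to other genes, measured in soleus (SOL) muscle of mice with and without muscle Irf4. They were taken by name and not by a rule on their values, though earlier results of these data were known when they were chosen. They are Dbp, Tef, Hlf, Nfil3, Bhlhe40, Bhlhe41, Ciart and Rora, 8 of the 24054 genes in the deposited table. All 8 had a row and enough reads to be tested. The series sets muscle-specific Irf4 knockout mice (MI4KO) against flox littermates, to ask how loss of IRF4, a transcription factor of the interferon regulatory factor family, alters muscle gene expression. MI4KO mice carried floxed Irf4 alleles and a Cre recombinase driven from Myl1, a gene of fast muscle fibers, and flox mice carried the floxed alleles without Cre. All were C57BL/6 males, and the labels give high-fat food for all of them. Their age, and the hour at which the muscle was taken, were not given in the sources used here. The Cre acts in muscle fibers, so the endothelial cells, fibroblasts, satellite cells, Schwann cells and adipocytes of the muscle keep Irf4. There were 4 mice in each group and 1 library per mouse, and within a group the mice are called 1 to 4, from the lowest to the highest label number.

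The clock is a loop in which CLOCK and BMAL1, the product of Arntl, bind E-boxes and switch on genes whose products later shut them off. DBP, TEF and HLF form the PAR bZIP family and activate genes that carry D-boxes, while NFIL3 (E4BP4) binds the same D-boxes as a repressor and usually peaks when DBP is low. BHLHE40 (DEC1) and BHLHE41 (DEC2) bind E-boxes as repressors, CIART (CHRONO) represses the CLOCK and BMAL1 complex, and RORA activates Arntl and Nfil3 through ROR elements, on which NR1D1 (REV-ERBα) acts as a repressor. In muscle these factors pass daily time on to genes of metabolism and of the fibers themselves, and several of them also answer to glucocorticoids, feeding and activity.

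The letters of these elements were looked for in the 250 bases before the transcription start of the members, on both strands, in the RefSeq promoters of GRCm38.p6. Entries were found for 7 members, with 8 starts, and there was none for Bhlhe40. The E-box CACGTG was in the windows of Ciart, Bhlhe41 and Tef, the ROR element TAGGTCA was in that of Nfil3, and the D-boxes TTATGTAA and TTACGTAA were in none. Over 32851 windows of the same length, 6.02% held CACGTG, 2.23% held TAGGTCA, 0.819% held TTATGTAA and 0.113% held TTACGTAA. CACGTG reads the same on both strands, and the capitals below mark the elements. Ciart is shown because its window held CACGTG 3 times, starting at positions -116, -58 and -44 from the transcription start, and the sequences of Bhlhe41, of the second start of Tef and of Nfil3 are shown as the other members with an element. Each is read in the direction of the gene. The stretches of Ciart, Bhlhe41 and Tef hold no annotated exon, and that of Tef lies inside the gene, between its first and second start. The Nfil3 stretch holds the ROR element on the other strand, as TGACCTA, from position -12 to -6 before the RefSeq start and inside the first exon as GENCODE draws it. A match of letters is a description of the sequence and does not show that a factor binds there.
Ciart, chr3:95882252-95882431, minus strand: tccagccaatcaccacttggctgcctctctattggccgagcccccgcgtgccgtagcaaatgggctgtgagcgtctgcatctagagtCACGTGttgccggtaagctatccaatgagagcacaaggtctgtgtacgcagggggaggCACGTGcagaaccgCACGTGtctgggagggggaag
Bhlhe41, chr6:145865559-145865670, minus strand: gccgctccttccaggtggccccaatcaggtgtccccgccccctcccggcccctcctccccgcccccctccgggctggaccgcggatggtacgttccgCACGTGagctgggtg
Tef, second start, chr15:81811234-81811413, plus strand: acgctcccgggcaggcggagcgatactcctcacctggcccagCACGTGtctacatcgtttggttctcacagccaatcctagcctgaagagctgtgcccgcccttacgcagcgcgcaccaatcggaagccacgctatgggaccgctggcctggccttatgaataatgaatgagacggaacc
Nfil3, chr13:52981040-52981059, minus strand: ctcggaacTGACCTActaac

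Values are TMM-normalized CPM as deposited, which is counts per library size, scaled between libraries by TMM, which takes most genes to be equal in all of them. Libraries held 13417512 to 16384565 reads on genes, and the members had between 82 reads (Ciart) and 3492 reads (Tef) in a mouse. Muscle fiber markers were abundant in every mouse, with summed slow fiber markers of 32196 to 42353 and summed fast fiber markers of 44013 to 59321. The highest fast sum was that of MI4KO mouse 3. A pair of libraries stood apart. MI4KO mouse 3 held the highest value of 30.9% of the 11865 genes tested, its 10 glucocorticoid response genes summed to 1235 against 407 to 542 in the other mice, and its neutrophil markers summed to 4.25 against 0.146 to 0.375, with 1 of the 5 markers in the table at 0 in every mouse. Flox mouse 1 carried liver transcripts, with 8 markers summing to 127 against at most 3.19 in the others. The gene lists summed here were chosen with earlier results of these data known. The mouse numbers in the labels fall in a lower range, with flox mouse 1 and MI4KO mice 1 and 2, and an upper range, with the rest.

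Irf4 (chromosome 13, 30749226 to 30766976, plus strand, GRCm38), the deleted gene, was at 0.686, 1.46, 1.58 and 1.68 in flox mice 1 to 4 and at 0.725, 0.840, 0.266 and 1.03 in MI4KO mice 1 to 4, from 4 to 23 reads per mouse. Flox mouse 1 lay within the MI4KO values, so the groups overlapped. Its log2 fold change was -0.45 (SE 0.20, limma unadjusted p = 0.0402, adjusted p = 1.0).

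With all mice, no difference between MI4KO and flox SOL was called for any of the 8 clock output factors, and the values of the groups overlapped for each. Of the 8 factors, 6 had a lower and 2 a higher mean log2 value in MI4KO mice, with a median log2 fold change of -0.15 against -0.01 over all genes tested. With median-of-ratios or library size scaling, or with DESeq2, 5 were lower and 3 higher, since Tef lay next to 0. No member reached both a fold change of 1.5 and an unadjusted p under 0.05 in limma, where 0.219% of all genes tested did, and no member had an unadjusted p under 0.05 alone, where 3.36% did. At an adjusted p under 0.05 limma called no gene of the table (0%). Run on the recovered reads, edgeR and DESeq2 gave no member an unadjusted p under 0.05 either, and no gene an adjusted one. No member had groups that failed to overlap, while 2.07% of all genes tested did. Fold changes are on the log2(value + 1) scale, which understates those of low genes. The limma p-values weigh a difference against the spread between these mice, with that spread moderated over all genes. In whole muscle, fewer cells of a type and less RNA per cell cannot be told apart.

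Dbp, the PAR bZIP activator whose RNA is among the most rhythmic in many tissues, lies on chromosome 7 from 45705088 to 45710203 (plus strand). It was at 109, 170, 157 and 163 in flox mice 1 to 4, and at 112, 138, 53.7 and 135 in MI4KO mice 1 to 4. Flox mice 2 to 4 were above every MI4KO mouse, but flox mouse 1 lay below 3 of them, and MI4KO mouse 3 was under 60 while no other mouse was under 100. Its group means were 149.7 ± 27.8 and 109.8 ± 39.2 (SD, n = 4), the largest shift downward among the members. The log2 fold change was -0.51 (SE 0.25, limma unadjusted p = 0.0610, adjusted p = 1.0), with a 95% interval from -1.05 to 0.03 and an exact permutation p of 0.200, where 0.0286 is the smallest that 4 mice against 4 allow. This result turned on single mice. Without MI4KO mouse 3 the ratio of the MI4KO to the flox mean went from 0.733 to 0.858, and the log2 fold change was -0.20 (limma unadjusted p = 0.144). Without flox mouse 1, the mouse with liver transcripts, it was -0.66 (limma unadjusted p = 0.0267). Without MI4KO mouse 2 it was -0.65 (0.0275) and without MI4KO mouse 4 it was -0.64 (0.0317). Dbp thus passed both limits in each of these fits, with limma adjusted p between 0.922 and 1.0. In the same order, these fits called 34 of 11797, 33 of 11798 and 57 of 11791 genes tested. With both MI4KO mouse 3 and flox mouse 1 left out, a choice made after the values were seen, the Dbp groups no longer overlapped, as for 10.8% of all genes tested with these mice left out, and the log2 fold change was -0.35 (limma unadjusted p = 0.00189, adjusted p = 0.886).

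Tef, another PAR bZIP activator, lies on chromosome 15 from 81802421 to 81826863 (plus strand) and was the steadiest of the members. It was at 218, 185, 205 and 206 in the flox mice and at 192, 201, 209 and 203 in the MI4KO mice. The MI4KO values all fell between the flox extremes, with MI4KO mouse 3 the highest of them. The log2 fold change was -0.01 (SE 0.07, limma adjusted p = 1.0), with a 95% interval from -0.17 to 0.14, which is 0.892 to 1.10 as a fold. Its direction is not set, since it was 0.01 with median-of-ratios scaling and 0.03 with library size scaling. Among the MI4KO mice, 96.9% of all genes tested had a larger coefficient of variation than Tef, and among the flox mice 69.7% did.

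Hlf, the third PAR bZIP activator, lies on chromosome 11 from 90336536 to 90390895 (minus strand). It was at 13.7, 16.5, 15.7 and 16.6 in the flox mice and at 12.8, 15.6, 11.9 and 17.3 in the MI4KO mice. MI4KO mouse 4 had the highest and MI4KO mouse 3 the lowest value of all, and the flox mice lay between them. For Hlf the log2 fold change was -0.12 (SE 0.12, limma adjusted p = 1.0), with a 95% interval from -0.38 to 0.14.

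**Figure D1:**
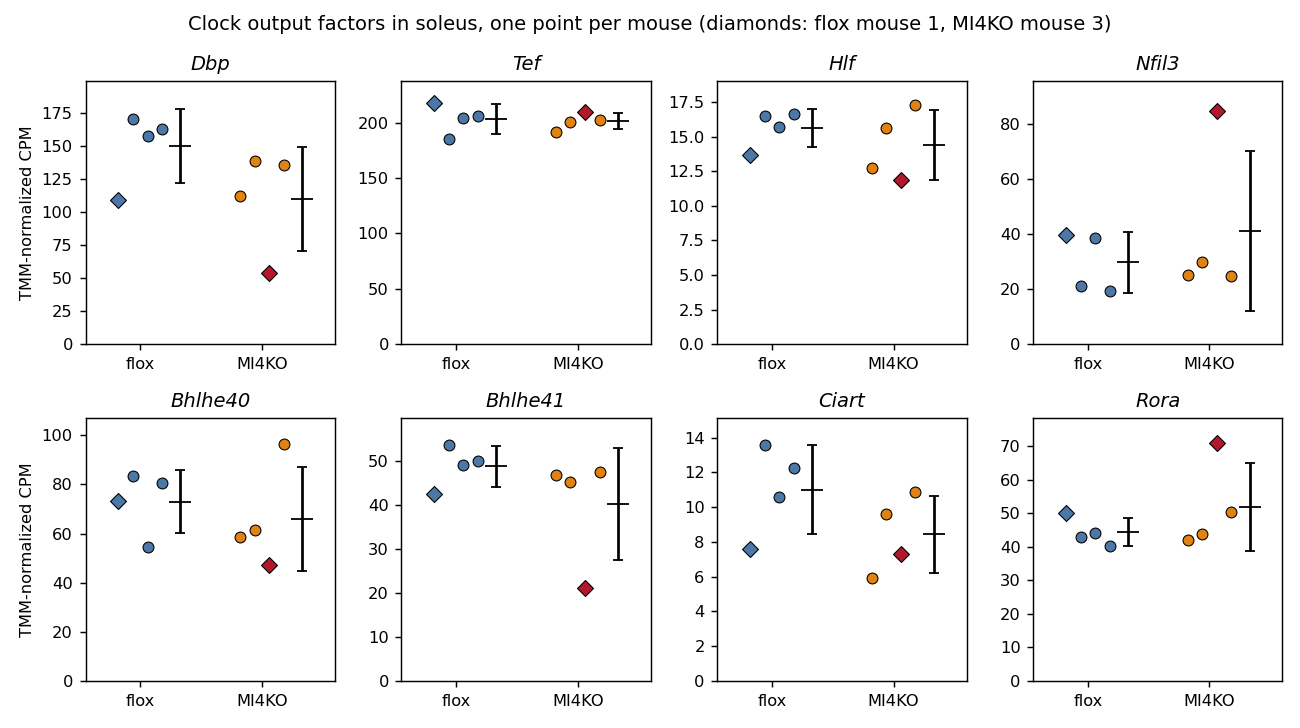
TMM-normalized CPM (y axis, starting at 0) of the 8 factors in 4 flox (blue) and 4 MI4KO (orange) mice, 1 point per mouse in the order 1 to 4, with the mean and SD of each group as bars. Diamonds mark flox mouse 1 and MI4KO mouse 3 (red), which stands apart at 53.7 for Dbp, 84.6 for Nfil3, 21.1 for Bhlhe41 and 70.9 for Rora, while every panel shows overlapping groups.

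Nfil3, the repressor that competes with the PAR bZIP factors for D-boxes, lies on chromosome 13 from 52967209 to 52981073 (minus strand). It was at 39.6, 21.2, 38.7 and 19.3 in flox mice 1 to 4, and at 25.1, 29.9, 84.6 and 24.8 in MI4KO mice 1 to 4. Flox mice 1 and 3 were near 39 and flox mice 2 and 4 near 20, and MI4KO mice 1, 2 and 4 lay between these levels, whereas MI4KO mouse 3 was 3.37 times the median of the other 7 mice. Nfil3 varied more within each group than nearly all genes did. Its coefficient of variation was 36.9% in flox mice, exceeded by 2.60% of genes tested, and 70.8% in MI4KO mice, exceeded by 0.750%. The latter came from MI4KO mouse 3, without which the MI4KO mean was 26.6 and the SD 2.85. The log2 fold change was 0.32 (SE 0.35, limma unadjusted p = 0.371, adjusted p = 1.0), with a 95% interval from 0.741 to 2.11 as a fold and an exact permutation p of 0.686. Without MI4KO mouse 3 it turned to -0.09 (limma unadjusted p = 0.688), and the ratio of means went from 1.38 to 0.895.

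Bhlhe40, an E-box repressor that also responds to hypoxia and activity, lies on chromosome 6 from 108660629 to 108666925 (plus strand). It was at 73.3, 83.6, 54.7 and 80.4 in the flox mice and at 58.5, 61.4, 47.3 and 96.3 in the MI4KO mice. The MI4KO mice held both the lowest value, in mouse 3, and the highest, in mouse 4, so the groups overlapped throughout. For Bhlhe40 the log2 fold change was -0.18 (SE 0.19, limma adjusted p = 1.0), with a 95% interval from -0.58 to 0.23. Without MI4KO mouse 4 it was -0.37 (limma unadjusted p = 0.0226, adjusted p = 0.903), short of the fold limit.

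Bhlhe41, the closest relative of Bhlhe40, lies on the same chromosome from 145858243 to 145865558 (minus strand). It was at 42.4, 53.6, 49.1 and 49.98 in flox mice 1 to 4 and at 46.9, 45.3, 21.1 and 47.6 in MI4KO mice 1 to 4. MI4KO mice 1, 2 and 4 differed by less than 3 and lay between flox mouse 1 and the other flox mice, and MI4KO mouse 3 was at 0.443 of the median of the other 7 mice. Between the groups, Bhlhe41 had a log2 fold change of -0.34 (SE 0.21, limma unadjusted p = 0.132, adjusted p = 1.0), with a 95% interval from -0.79 to 0.12. It was -0.06 without MI4KO mouse 3 (limma unadjusted p = 0.491). With flox mouse 1 left out, Dbp and Bhlhe41 were the members whose groups did not overlap, 2 of 8, where 5.04% of all genes tested did not overlap in the same 3 against 4 mice.

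Ciart, the least covered of the factors and the one with 3 E-boxes in its promoter window, lies on chromosome 3 from 95878503 to 95882251 (minus strand). It was at 7.61, 13.6, 10.6 and 12.2 in the flox mice and at 5.95, 9.63, 7.31 and 10.9 in the MI4KO mice. Flox mouse 1 was again the lowest of its group and lay among the lower MI4KO mice, and MI4KO mouse 4 lay above flox mouse 3. Ciart had a log2 fold change of -0.35 (SE 0.19, limma unadjusted p = 0.0854, adjusted p = 1.0), with a 95% interval from -0.76 to 0.06 and an exact permutation p of 0.200. Unlike Dbp and Bhlhe41 it kept most of this size without MI4KO mouse 3, at -0.30 (limma unadjusted p = 0.146), and its ratio of means went from 0.767 to 0.801. Without flox mouse 1 it was -0.50 (limma unadjusted p = 0.0156, adjusted p = 0.999) and without MI4KO mouse 4 it was -0.47 (limma unadjusted p = 0.0302, adjusted p = 0.903), both short of the fold limit.

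Rora, the nuclear receptor that activates Arntl, lies on chromosome 9 from 68653786 to 69388246 (plus strand). It was at 50.2, 42.9, 44.3 and 40.3 in the flox mice and at 42.1, 44.0, 70.9 and 50.6 in the MI4KO mice. All values but that of MI4KO mouse 3 lay between 40 and 51, and this mouse was 1.61 times the median of the others. Rora had a log2 fold change of 0.19 (SE 0.14, limma unadjusted p = 0.191, adjusted p = 1.0), with a 95% interval from -0.11 to 0.50, and it was 0.04 without MI4KO mouse 3.

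**Figure D2:**
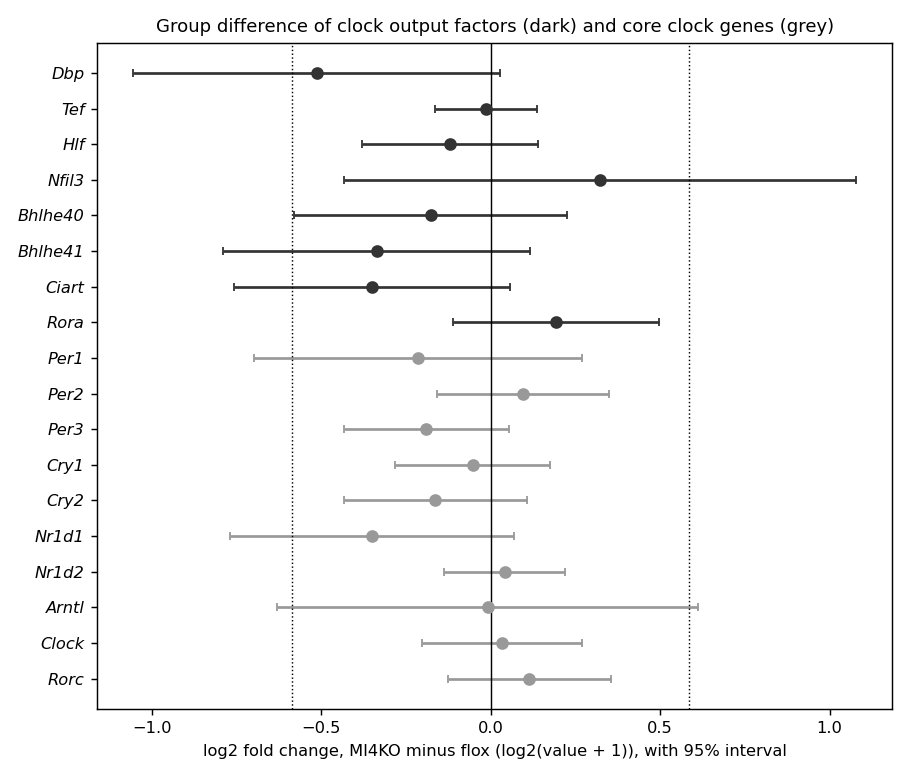
log2 fold change of MI4KO against flox mice (x axis, on log2(value + 1), n = 4 each) with its 95% interval from limma, for the 8 factors (dark) and 10 core clock genes (grey), with dotted lines at a fold change of 1.5 either way. Every interval spans 0, that of Tef is the narrowest among the factors (-0.17 to 0.14) and that of Nfil3 the widest (from -0.43).

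In the rest of the clock no gene passed both limits either. Of 13 core clock genes, 10 could be tested, with 6 lower and 4 higher in mean, a median log2 fold change of -0.03 and none with an unadjusted p under 0.05 in limma. Npas2, Arntl2 and Rorb were too low to test. Arntl, which RORA activates, was at 5.36, 7.21, 6.60 and 9.76 in flox mice and at 7.40, 3.43, 13.9 and 6.53 in MI4KO mice. Nr1d1, the repressor that opposes RORA, was at 81.7, 120.2, 89.4 and 129 in flox mice and at 83.0, 94.0, 52.7 and 103 in MI4KO mice. MI4KO mouse 3 was thus the highest of all mice for Arntl and the lowest for Nr1d1, and the groups overlapped for both. Of 7 kinases and ubiquitin ligases that set the life of clock proteins, 6 were tested and none had an unadjusted p under 0.05. Timeless, singled out after its values were seen, was the 1 of them whose groups did not overlap, where the flox mice were at 3.99 to 4.72 and those of the MI4KO group at 3.52 to 3.81 (limma log2 fold change -0.17, unadjusted p = 0.136). Of 12 clock-controlled output genes, 11 were tested, their median log2 fold change was 0.02 with a range from -0.29 to 0.26, and none had an unadjusted p under 0.05. Over these 27 tested genes of the clock, edgeR and DESeq2 gave 1 each.

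MI4KO mouse 3 stood well apart from the other mice for Dbp, Nfil3, Bhlhe41 and Rora, but not for the other members. It was the lowest of the 8 mice for Dbp, Hlf, Bhlhe40 and Bhlhe41 and the highest for Nfil3 and Rora, which is 4 and 2 of 8, while over all genes tested it was the lowest for 13.3% and the highest for 30.9%. The ratio of Dbp to Nfil3, the activator and the repressor of D-boxes, was 0.635 there, against 2.75 to 8.43 in the other 7 mice, so that it was the only mouse with a higher CPM of Nfil3 than of Dbp. The ratio of Dbp to Arntl was 3.87 there and 15.1 to 40.3 in the others, and that of Bhlhe40 to Bhlhe41 was 2.25 against 1.11 to 2.02. These ratios are of CPM values, not per length, and serve to compare mice. Per1, a clock gene that glucocorticoids also induce, was highest in the same mouse at 110.1 against 45.3 to 101.3, whereas Per2 (16.4), Per3 (16.8) and Cry1 (18.4) did not stand outside the other mice. The glucocorticoid response genes of this mouse stood high, as given above, and their part in the values of the factors was not tested.

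**Figure D3:**
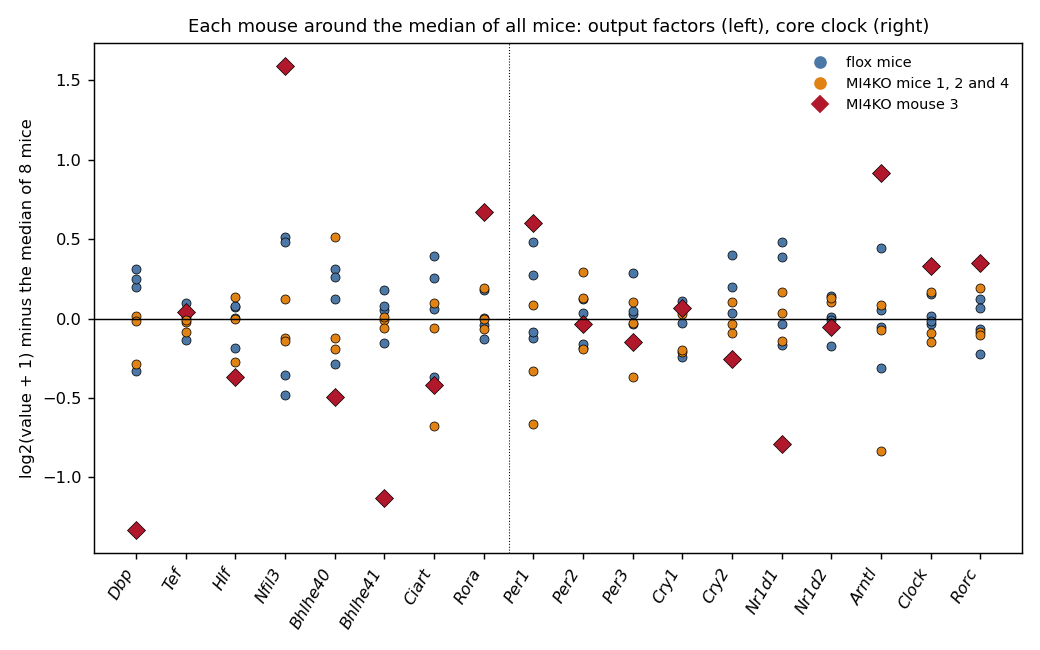
Deviation of each mouse from the median of all 8 mice on log2(value + 1) (y axis), for the 8 factors (left of the dotted line) and 10 core clock genes (right), with flox mice in blue, MI4KO mice 1, 2 and 4 in orange and MI4KO mouse 3 as a red diamond. The diamond lies outside all other mice for Dbp, Nfil3, Bhlhe41, Rora, Nr1d1 and Arntl, and among them for Tef, Per2 and Cry1.

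Some factors tended to lower values in the mice of the lower number range, which are flox mouse 1 and MI4KO mice 1 and 2. Leaving MI4KO mouse 3 aside, Ciart was at 5.95 to 9.63 in these 3 mice and at 10.6 to 13.6 in the other 4, and Hlf was at 12.8 to 15.6 against 15.7 to 17.3, without overlap. Bhlhe41 was at 42.4 to 46.9 against 47.6 to 53.6, also without overlap, and Dbp was at 109 to 138 against 135 to 170, with overlap. Nfil3, Bhlhe40, Rora and Tef overlapped between the same mice as well. Leaving MI4KO mouse 3 aside makes MI4KO mouse 4 the only MI4KO mouse of the upper range. How many of all genes tested separate the same mice was not counted. MI4KO mouse 3 itself, of the upper range, was at 7.31 for Ciart, among the mice of the lower range. Its values of 11.9 for Hlf and 21.1 for Bhlhe41 lay below those of the lower range. The separation of Ciart, Hlf and Bhlhe41 thus holds only with this mouse left aside. What the number ranges stand for is not given in the labels, the lower range has only 1 flox mouse, and the difference within each range was not tested. The log2 difference of MI4KO against flox for Dbp was 0.19 in the lower range and -0.93 in the upper, or -0.27 in the upper without MI4KO mouse 3. That of Ciart was -0.00 in the lower range and -0.40 in the upper, or -0.14 without that mouse. Nfil3 gave -0.52 and 0.85, or -0.02 in the upper range without that mouse, and Bhlhe41 gave 0.12 and -0.66, or -0.09. Rora gave -0.22 and 0.49, or 0.25. Bhlhe40 gave -0.29 and -0.08, or 0.42, Hlf gave 0.05 and -0.17, or 0.08, and Tef gave -0.15 and 0.05, or 0.03. With all mice, Dbp, Tef, Hlf, Nfil3, Bhlhe41 and Rora thus had opposite signs in the ranges, and without MI4KO mouse 3 the signs of Hlf, Nfil3 and Bhlhe40 in the upper range turned. With the range as a term in limma, the log2 fold change was -0.53 for Dbp (limma unadjusted p = 0.0638), -0.38 for Bhlhe41 (0.0940) and -0.26 for Ciart (0.152), and no member had an unadjusted p under 0.05.

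Levels can be set side by side only per length, and were divided by the longest coding transcript of each gene in GENCODE M21. In flox mice Dbp was the most abundant of the factors at 81.5 ± 15.1 CPM per kb (SD, n = 4), followed by Tef at 46.2 ± 3.06, Bhlhe40 at 23.4 ± 4.16 and Nfil3 at 14.7 ± 5.41. Bhlhe41 at 7.95 ± 0.763, Ciart at 5.68 ± 1.33, Rora at 4.08 ± 0.385 and Hlf at 2.77 ± 0.243 were lower. Dbp and Tef did not overlap between flox mice (59.2 to 92.5 against 42.1 to 49.4), and neither did Tef and Bhlhe40, Nfil3 and Bhlhe41, or Rora and Hlf. Bhlhe40 and Nfil3, Bhlhe41 and Ciart, and Ciart and Rora overlapped, so the order of these neighbors is not set. Dividing by the union of exons gave the same order of means, but dividing by the shortest coding transcript did not. That length put Bhlhe40 first at 153 CPM per kb, then Dbp at 129.5, Bhlhe41 at 65.5, Tef at 49.9, Rora at 17.1 and Nfil3 at 14.7, so the order depends on the length used.

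Some of the factors varied together across the 8 mice. On log2(value + 1), 28 relations among the 8 members were computed after the values had been seen, and 1 passed at a Benjamini-Hochberg adjusted p under 0.05. Dbp and Bhlhe41 had r = 0.96 (exact permutation p = 0.00169, adjusted p = 0.0472) and Spearman's rho = 0.93 (exact permutation p = 0.00223, adjusted p = 0.0625) over the 8 mice. MI4KO mouse 3 and flox mouse 1 were farthest from the median of Dbp, and without them r was 0.75. Without MI4KO mouse 3 alone it was 0.85 (exact permutation p = 0.0135, adjusted p = 0.126), so the call rests in part on that mouse. Hlf and Ciart had r = 0.89 (exact permutation p = 0.00779, adjusted p = 0.0727) and rho = 0.88, with r = 0.93 without MI4KO mouse 3. Dbp and Ciart went from r = 0.70 to 0.92 when that mouse was left out. In the other direction, the inverse relations of Nfil3 and Rora with Dbp and Bhlhe41 leaned on the same mouse. Dbp and Nfil3 went from r = -0.86 to -0.45, Dbp and Rora from -0.90 to -0.48, Nfil3 and Bhlhe41 from -0.90 to -0.66, and Bhlhe41 and Rora from -0.93 to -0.56. Tef was the member least related to the others, with r between -0.43 and 0.54. Without MI4KO mouse 3, the lowest adjusted p of the 28 was 0.126 (exact permutation test). Each number range and each group held under 6 mice, too few for a correlation within it.

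**Figure D4:**
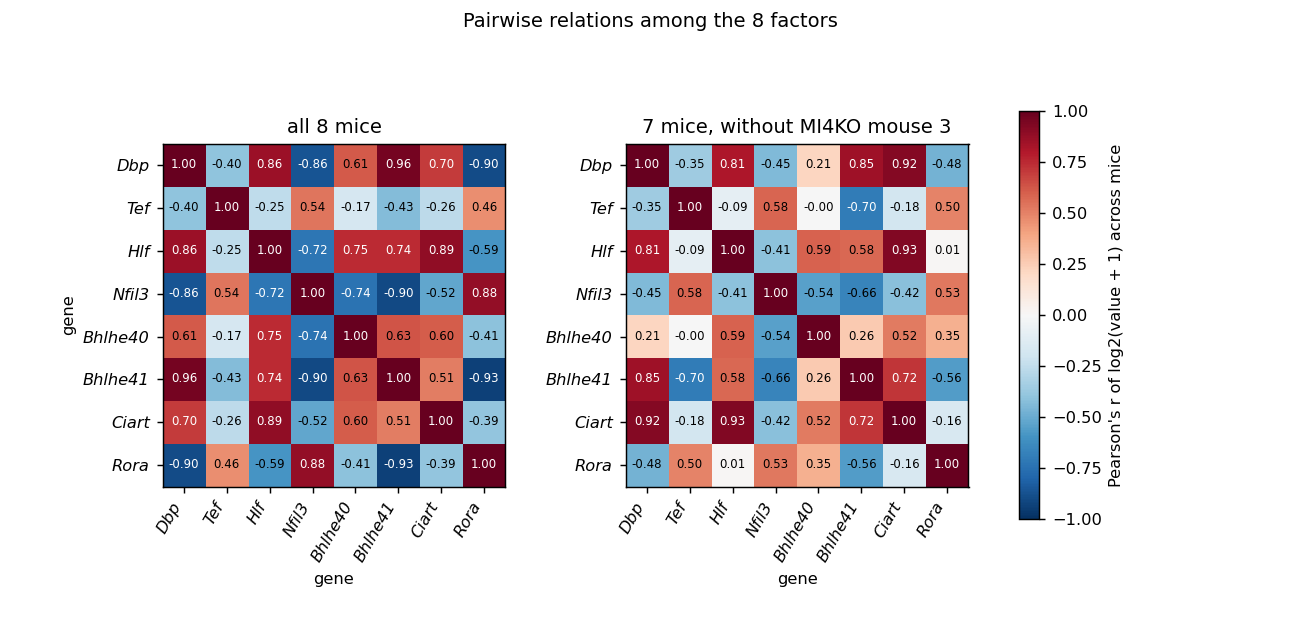
Pearson's r between each pair of the 8 factors on log2(value + 1), over all 8 mice (left) and over the 7 mice without MI4KO mouse 3 (right), from -1 (blue) to 1 (red), with r printed in each cell. The relation of Dbp with Ciart deepens from 0.70 to 0.92 on the right, and those of Rora with Dbp (-0.90 to -0.48) and with Bhlhe41 (-0.93 to -0.56) fade.

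No relation of a member with Arntl, whose product activates the E-box genes, passed over the 8 mice. The lowest adjusted p of these 8 relations was 0.558 (exact permutation test). Dbp had r = -0.52 and rho = -0.05 with Arntl, and r was 0.33 without MI4KO mouse 3.

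Hlf and Ciart were higher in mice with higher summed fibroblast markers. The 5 fibroblast markers summed to 298, 356, 297 and 393 in flox mice 1 to 4 and to 241, 343, 268 and 386 in MI4KO mice 1 to 4, with none of the 5 at 0 in every mouse and none with an unadjusted p under 0.05 between groups in limma. Of 8 relations of a member with this sum, computed after the values had been seen, 2 passed. Hlf had r = 0.90 (exact permutation p = 0.00372, adjusted p = 0.0292) and rho = 0.88 (adjusted p = 0.0410), and r was 0.90 without MI4KO mouse 1 and flox mouse 4, the mice farthest from the median sum, and 0.92 without MI4KO mouse 3 (adjusted p = 0.0381, exact permutation test). Ciart had r = 0.87 (exact permutation p = 0.00729, adjusted p = 0.0292) and rho = 0.86 (adjusted p = 0.0410), and r was 0.74 without the same pair of mice and 0.85 without MI4KO mouse 3, where its adjusted p was 0.102. Bhlhe40 passed by rank only, with rho = 0.83 (adjusted p = 0.0410, exact permutation test) beside r = 0.78 (adjusted p = 0.0692), and Dbp gave r = 0.62 (adjusted p = 0.222, exact permutation test). Tef had r = -0.04. The 3 mice of the lower number range had sums of 298, 241 and 343, and the part of that range in these relations was not tested. Relations with the marker sums of other cell types were not computed, so the ties are not shown to be particular to fibroblasts. The sum of 5 adipocyte markers was 20.1, 26.3, 19.4 and 22.7 in flox mice 1 to 4. In MI4KO mice 1 to 4 it was 7.69, 25.1, 12.5 and 34.8.

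**Figure D5:**
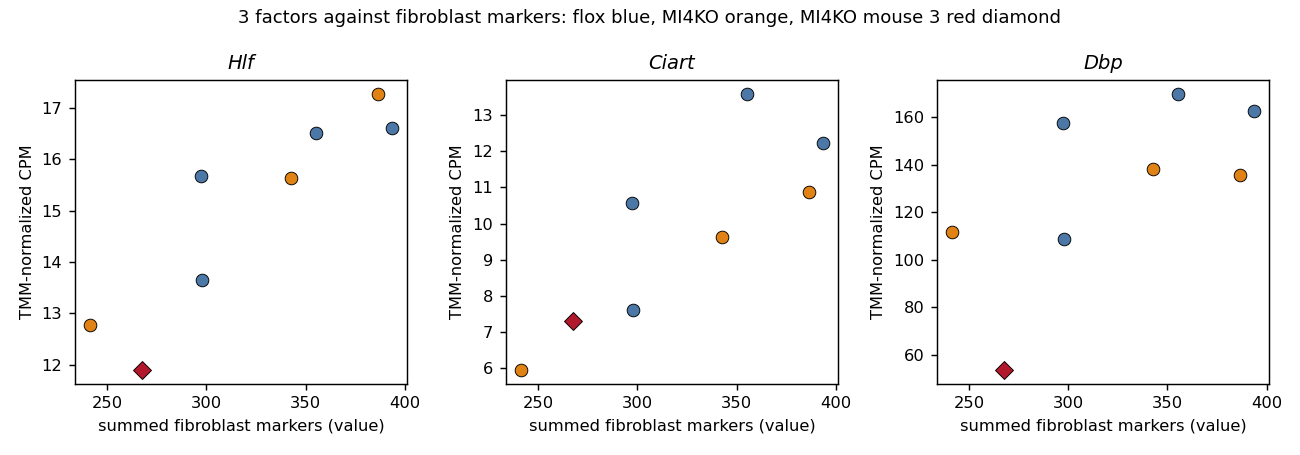
TMM-normalized CPM of Hlf, Ciart and Dbp (y axes, not from 0) against the summed TMM-normalized CPM of 5 fibroblast markers (x axis), 1 point per mouse, with flox mice in blue, MI4KO mice in orange and MI4KO mouse 3 as a red diamond. Over the mice of both groups together, Hlf (r = 0.90) and Ciart (r = 0.87) tend to be higher where the sum is higher, and r was not computed within a group. For Dbp (r = 0.62) MI4KO mouse 3 lies far below the rest.

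The genes whose profile over the 8 mice was most like that of a member were looked up among the 9127 genes whose mean value was 5 or more, by Pearson's r on log2(value + 1), as a description. For Hlf they were Sp100 (0.975), Col5a2 (0.972) and St5 (0.971), and without MI4KO mouse 3 they were St5 (0.988), Zfp366 (0.974) and Sparc (0.969). For Ciart they were Col15a1 (0.969), Fads3 (0.962) and Col1a1 (0.960), and without that mouse Erf (0.983), Alkbh7 (0.973) and Hnrnpl (0.968). Col5a2, Col15a1 and Col1a1 encode collagens and Sparc a collagen-binding protein of the matrix. Col1a1 is itself among the summed fibroblast markers, so its likeness to Ciart is not separate from the relation of Ciart with that sum. No collagen gene was among the 3 nearest to Hlf or Ciart without MI4KO mouse 3.

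For Dbp the nearest genes were Popdc2 (0.975), Tspan2 (0.973) and Fam198b (0.972), none of which remained among the 3 nearest without MI4KO mouse 3, where Mid1 (0.970), Smad2 (0.968) and Golph3l (0.958) took their place. For Bhlhe41 they were Ankrd1 (0.970), Nes (0.969) and Igsf1 (0.965), of which Ankrd1 and Nes belong to the stretch-responsive and structural genes of muscle, and without that mouse they included Spred1 (0.940) and Strbp (0.938). For Bhlhe40 they were Plxdc2 (0.917), Sema6d (0.894) and 2700081O15Rik (0.893), and without it Syne3 (0.950), Ccdc167 (0.935) and Pcdh19 (0.935).

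Some nearest genes held with and without MI4KO mouse 3. Exosc9 (0.967, then 0.989) and Dcaf7 (0.959, then 0.966) stayed near Tef, which also had Vps39 (0.982) without that mouse. Impact (0.980, then 0.946) stayed nearest to Nfil3, beside Irak2 (0.964) and Malsu1 (0.963) over all mice and Dhps (0.938) and Zcchc17 (0.935) without it. Dcun1d2 (0.987, then 0.958) stayed near Rora, beside Sec24a (0.987) and Jmy (0.976) over all mice and Lrch1 (0.960) and Dmxl1 (0.959) without it.

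The exons of 5 members overlap those of a gene on the other strand. The kit keeps strand, but whether the counting used it is not given in the sources used here, so reads in these stretches may belong to either gene. The overlap is 1280 bases for Bhlhe41 with Gm43909, 539 for Dbp with Sphk2, 193 for Tef with Gm17597, 118 for Bhlhe40 with 0610040F04Rik and 82 for Rora with Gm15511. Sphk2 was at 17.5 to 36.7 and 0610040F04Rik at 0 to 0.0750 over the 8 mice.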

How the data were processed

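The authors made stranded poly(A) libraries of SOL RNA, aligned single reads (Bowtie2 2.1.0, mm10 in the submitters' processing notes), estimated expression with RSEM 1.2.15 and scaled it by TMM. The deposited signal is 1 TMM-normalized CPM value per gene and mouse. The authors' 3 comparison columns (fold change, p-value and FDR) were not used. Divided by the step of its mouse, every value above 0 gave a whole read count within 0.1 (100%), and 3 reads equal values of 0.181 to 0.225, which covers counting error only. Pairs of libraries differed by a chi-square of at least 6.39 per degree of freedom.

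Groups were compared with limma 3.58.1 (R 4.3.3) on log2(value + 1), using its intensity trend and leaving out genes that reached a value of 1 in fewer than 4 mice, with Benjamini-Hochberg adjustment over 11865 genes, after a test on simulated data. The limits were a fold change of 1.5 and an unadjusted p of 0.05. Exact two-sided permutation tests used scipy 1.17.1. Alternatives on these whole reads were edgeR 4.0.16 (quasi-likelihood) and DESeq2 1.42.0. Named genes are the 8 members, the core clock genes, Irf4 and the 3 genes nearest to each member, some of which are not reported here. The members and lists were chosen with earlier results of these data known. Positions are from GENCODE M21 and promoters from RefSeq, by symbol.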

Additional observations from a re-analysis of the deposited data

Results flagged for a closer look

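Among the 4 MI4KO or 4 flox mice, a value was picked out where its gap to the nearest other mouse exceeded Dixon's 95% critical share of the range of its group. Over the 8 members this was looked at in 16 groups, of which chance picks about 1 in 20, and 2 were past it, both in MI4KO mouse 3. Nfil3 was at 84.6 in this mouse, the highest of the MI4KO mice, with a gap of 0.915 of their range. Bhlhe41 was at 21.1 in it, the lowest of the MI4KO mice, with a gap of 0.913. The Dbp value of flox mouse 1 (109, gap 0.797) and that of MI4KO mouse 3 (53.7, gap 0.689) stayed under the limit. The same mouse had summed glucocorticoid response genes of 1235 against 407 to 542 in the others, and their part in the Nfil3 and Bhlhe41 values was not tested.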

How the results depend on the processing

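The number of genes past both limits was 26, and it was 41 with a pseudocount of 0.5, 71 with 0.1, 14 with a minimum value of 5, 13 with robust estimation, 65 with edgeR, 51 with DESeq2 and 18 to 57 with each mouse left out in turn. At an adjusted p under 0.05, limma called 1 gene without MI4KO mouse 2 and none in the other settings. No member was past both limits in limma, edgeR or DESeq2 with all mice, and 0 to 1 was with a mouse left out, the 1 being Dbp. No member had non-overlapping groups with all mice, where 2.07% of all genes tested did. With a mouse left out 0 to 2 members did, beside 3.54% to 5.39% of all genes tested. With MI4KO mouse 3 and flox mouse 1 both left out 2 did, beside 10.8%. The log2 fold change of Tef changed sign with median-of-ratios scaling (0.0058), library size scaling (0.029) and DESeq2 (0.0023), and ran from -0.059 to 0.019 with a mouse left out. That of Nfil3 ran from -0.086, without MI4KO mouse 3, to 0.49. The other 6 members kept their direction in all settings run. The cause of these shifts was not tested. With 4 mice a group, the 95% interval of a member spans up to 0.482 to 1.02 (Dbp) or 0.741 to 2.11 (Nfil3) as a fold. Differences inside these bounds were not excluded. No paired analysis was possible because the groups share no mouse numbers.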
